A study of Mesocricetus auratus with 6 samples.

Results

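The mitosis and G2/M genes are 50 named genes whose products carry a cell through the end of G2 and through mitosis, and 47 of them were measured, out of 12393 genes on the array. A gene counted as measured when at least 1 probe set carried its symbol and no other, and the probe set with the highest mean over all 6 arrays stood for it. That choice used the level over both sites together, so a high level at 1 site can decide it. Ccnb1, Cdca8 and Espl1 were not analysed here. The list was drawn up with earlier results of the same arrays known, so the number of its genes that differ between the sites is a description of these arrays.

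The tissue was the uterus of golden hamsters (Mesocricetus auratus), taken on pregnancy day 5; the labels name no treatment. A set of 3 arrays held RNA of sites where an embryo was implanting, and the other 3 arrays held RNA of the uterus between such sites, called interimplantation sites. The design text speaks of 3 different animals, and the labels do not say whether the embryo was taken out of the sample. In whole tissue, more dividing cells and more transcript per dividing cell cannot be told apart.

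Entry into mitosis is driven by the kinase Cdk1 bound to a cyclin of the A or B type, with the small Cks proteins as adaptors that bring the kinase to its substrates. Polo and Aurora kinases then build the spindle, the spindle checkpoint waits until each chromosome is attached, and the anaphase promoting complex, a ubiquitin ligase, starts chromosome separation and the destruction of the cyclins. Many of these genes are transcribed together late in the cycle, through Foxm1 and the MuvB complexes. In the mouse, uterine stromal cells proliferate around the attached blastocyst as they begin to decidualise, and some of them later become polyploid.

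Values are log2 RMA signals, the array's brightness per probe set after the authors' normalization, and the array medians ran between 4.55 and 4.57. The probes were designed on mouse sequence, so a mismatch with the hamster transcript can dim a probe set and shrink its difference. As a measure of dimness, 27 control probe sets for Bacillus genes, which the hamster lacks, had a median of 2.68 and a maximum of 5.79. The hybridisation controls averaged 6.64 ± 0.17 on the implantation arrays and 7.03 ± 0.27 on the interimplantation arrays (SD, n = 3 each), and shifting each array by them moves every difference up by 0.40. Directions are given relative to most transcripts on the array. Of 10 uterine stroma markers, 6 were brighter than every Bacillus control, among them the uterine transcription factors Hoxa10, Hoxa11 and Hand2.

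At the implantation site 6 of the 47 genes rose: the Cdk1 adaptors Cks2 and Cks1b, Cdk1 itself, Ube2c, which charges the anaphase promoting complex with ubiquitin, Pttg1 (securin), which holds the enzyme of chromosome separation in check until anaphase, and Spag5 (astrin), a protein of spindle and kinetochore. None of the 47 was called lower, and 41 did not pass in either direction. A gene was called at an adjusted p under 0.05 from limma's moderated test, adjusted by Benjamini-Hochberg over 22626 probe sets. By the same rule 1.36% of all genes were called higher and 1.18% lower. Before adjustment, 14 of the 47 were higher at p under 0.05 and 1 was lower, where 6.14% and 8.67% of all genes were. The median difference over the 47 genes was 0.09, against −0.02 over all genes, and 35 of the 47 were positive, against 43.8% of all genes.

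Among the partners of Cdk1, Cks2 differed most. Its log2 signal was 5.22, 5.15 and 5.12 at implantation sites, against 3.91, 4.20 and 4.11 at interimplantation sites. All 3 implantation arrays were above all 3 interimplantation arrays, and no other gene of the list had so large a difference. Cks2 was 2.13-fold higher at the implantation site (difference 1.09, SE 0.09, adjusted p = 1.43e-04).

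Cks1b, its paralog, measured 5.58, 5.40 and 5.40 at implantation sites, against 4.88, 4.93 and 5.05 at interimplantation sites, a difference of 0.50 (SE 0.09, adjusted p = 0.0112). Cdk1, the kinase that both Cks proteins bind, was at 6.08, 5.76 and 5.98 at implantation sites, against 5.25, 5.51 and 5.43 at interimplantation sites. Its groups did not overlap, and the difference was 0.54 (SE 0.10, adjusted p = 0.0174). The kinase and both adaptors were each higher on all 3 implantation arrays.

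Of the cyclins that activate Cdk1, Ccna2 and Ccnb2 were measured, and neither passed. Ccnb1 (cyclin B1) was not analysed, so nothing is said of it here. Ccna2 (cyclin A2) measured 5.70, 5.64 and 5.55 at implantation sites, against 5.87, 5.75 and 5.81 at interimplantation sites, without overlap and in the opposite direction to Cdk1 (difference −0.18, adjusted p = 0.368, 95% interval −0.36 to 0.003). Its other probe set was at 0.17, so the 2 probe sets of Ccna2 disagree in sign. Ccnb2 (cyclin B2) was even across the implantation sites, at 3.79, 3.79 and 3.72, and spread widely between them, at 3.21, 4.08 and 3.76 (difference 0.08, 95% interval −0.28 to 0.45). The phosphatases that switch Cdk1 on lay at −0.01 for Cdc25b and 0.005 for Cdc25c. Foxm1, the transcription factor of the late cell cycle programme, did not pass, and its groups overlapped. It measured 6.72, 6.94 and 6.85 at implantation sites, against 6.81, 6.90 and 6.96 at interimplantation sites. Its difference was −0.05 (95% interval −0.25 to 0.14), and its 4 probe sets ran between −0.06 and 0.07.

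**Figure D1:**
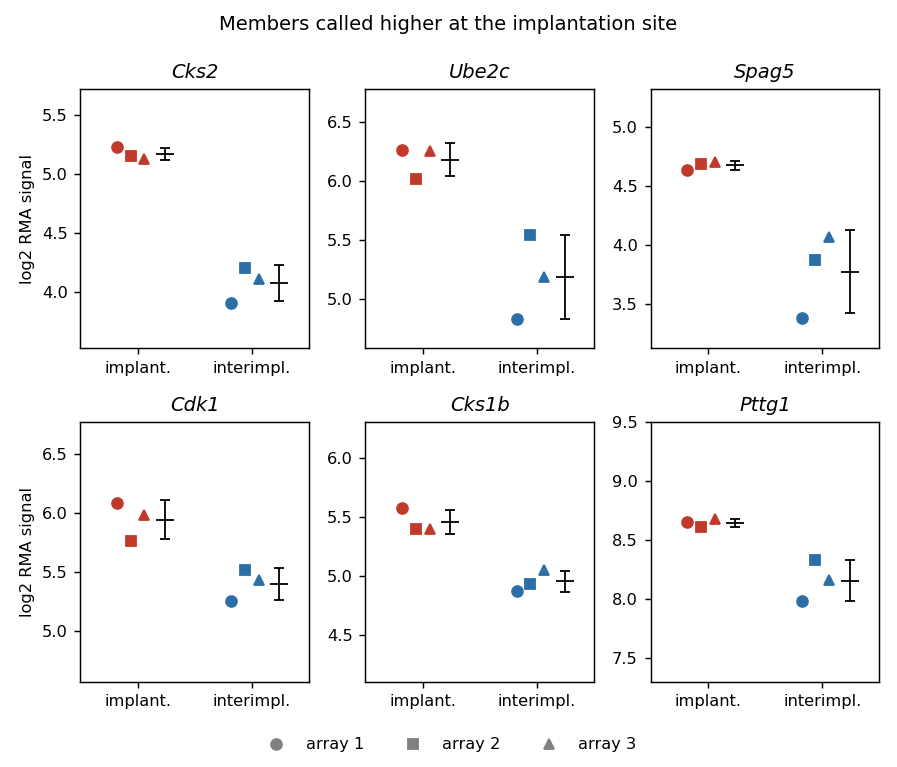
Log2 RMA signal of the 6 called genes on each array, implantation sites in red at the left and interimplantation sites in blue at the right; symbols mark arrays 1, 2 and 3, and black bars give mean ± SD (n = 3 each). Each panel spans the same range of log2 units, the groups do not overlap in any panel, and interimplantation array 1 is the lowest in all 6.

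In the machinery that ends mitosis, Ube2c was 1.99-fold higher. It measured 6.26, 6.02 and 6.26 at implantation sites, against 4.83, 5.55 and 5.19 at interimplantation sites (difference 0.99, SE 0.15, adjusted p = 0.00441). The groups did not overlap, although the interimplantation arrays spread more (SD 0.36) than the implantation arrays (SD 0.14).

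Pttg1 was at 8.66, 8.61 and 8.68 at implantation sites, against 7.98, 8.33 and 8.16 at interimplantation sites (difference 0.49, SE 0.10, adjusted p = 0.0219). Its implantation arrays lay close together (SD 0.03) and above the interimplantation arrays (SD 0.17). Cdc20, which activates the anaphase promoting complex, was at 6.06, 6.36 and 6.03 at implantation sites, against 6.05, 5.87 and 5.70 at interimplantation sites. These groups overlapped, and Cdc20 did not pass (difference 0.28, adjusted p = 0.288), although another probe set of it gave the same difference (0.28) without overlap and the third was at −0.05. Cdca3, a trigger of mitotic entry, was at −0.10 and did not pass.

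The spindle checkpoint genes were not called. Bub1, a checkpoint kinase, came nearest, with 4.26, 3.99 and 4.07 at implantation sites against 3.62, 3.99 and 3.61 at interimplantation sites (difference 0.36, adjusted p = 0.15). Interimplantation array 2 of Bub1 reached the level of the lowest implantation array. Mad2l1, which binds and blocks Cdc20, measured 4.62, 4.72 and 4.61 at implantation sites, against 4.40, 4.59 and 4.54 at interimplantation sites, without overlap (difference 0.14, adjusted p = 0.532). Bub1b (BubR1) measured 6.01, 6.10 and 6.03 at implantation sites, against 6.17, 6.16 and 6.03 at interimplantation sites, with overlap (difference −0.07, adjusted p = 0.763). Bub3, a partner of Bub1 and Bub1b, had a difference of 0.14 (adjusted p = 0.533).

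None of the 7 genes of mitotic kinases and the chromosomal passenger complex passed. Plk1 (polo-like kinase 1) measured 5.99, 5.77 and 5.83 at implantation sites, against 5.76, 5.55 and 5.63 at interimplantation sites, without overlap (difference 0.22, adjusted p = 0.314). Ttk, the checkpoint kinase Mps1, had the same difference, 0.22, also without overlap (adjusted p = 0.289). Aurka (Aurora A, of the spindle poles) spread over 4.87, 5.20 and 5.41 at implantation sites, against 5.15, 4.96 and 5.01 at interimplantation sites (difference 0.12, adjusted p = 0.735). In the chromosomal passenger complex, the kinase Aurkb (Aurora B) measured 4.70, 4.31 and 4.40 at implantation sites, against 4.44, 4.36 and 4.47 at interimplantation sites (difference 0.05, adjusted p = 0.897). Its partner Birc5 (survivin) measured 3.74, 3.78 and 3.82 at implantation sites, against 3.80, 3.74 and 3.67 at interimplantation sites (difference 0.04, adjusted p = 0.879). Both overlapped between the sites, as did the scaffold Incenp (0.12) and the centrosomal kinase Nek2 (−0.08).

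**Figure D2:**
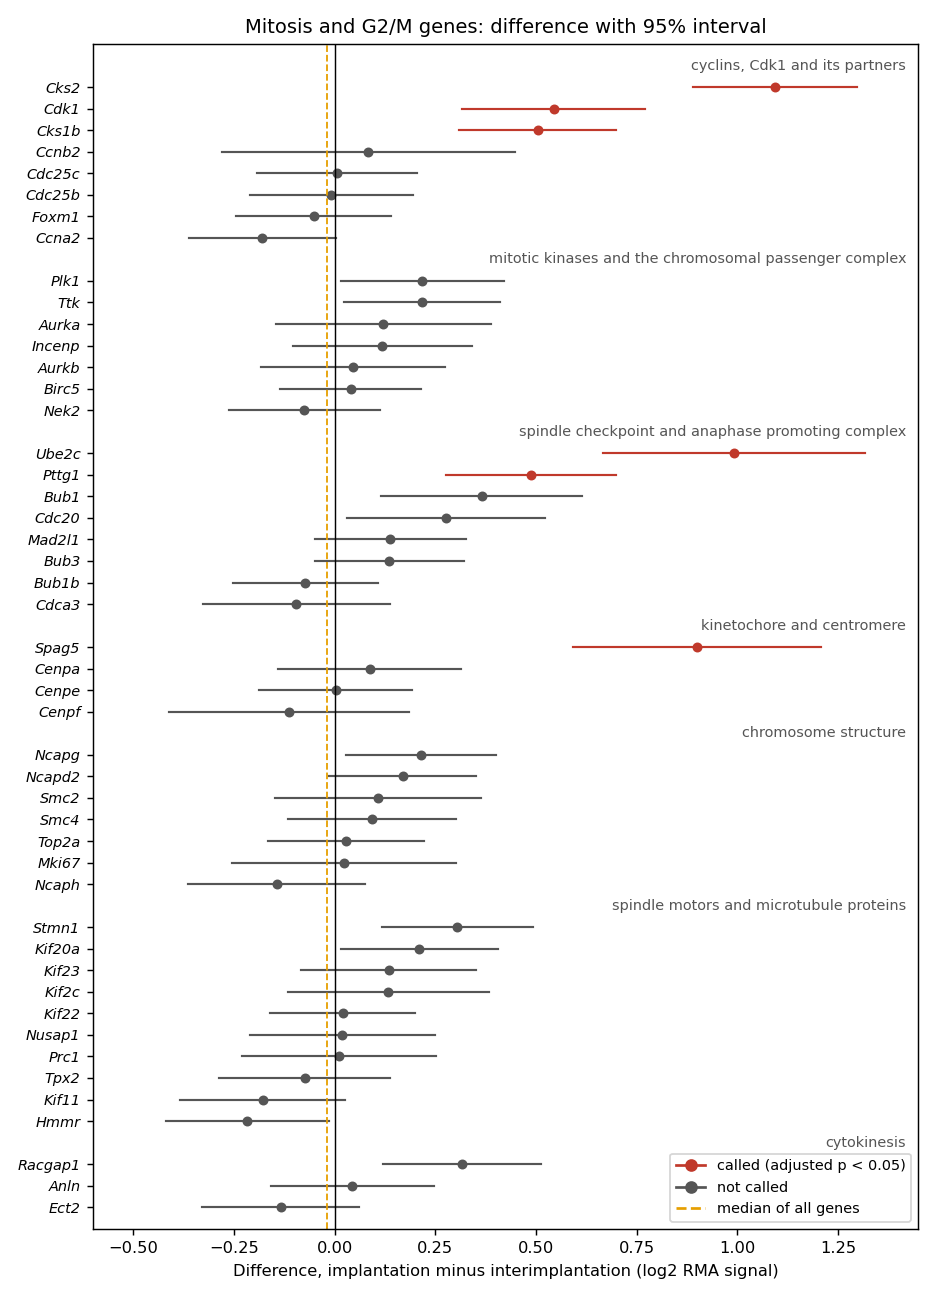
Difference between implantation and interimplantation sites (log2 RMA signal, implantation minus interimplantation) of the 47 measured genes with its 95% interval, grouped by role; red marks called genes, and the dashed line is the median of all genes (−0.02). The 6 called genes stand at 0.49 to 1.09, and the other 41 lie between −0.22 and 0.36.

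Of the kinetochore and centromere genes only Spag5 was called. It measured 4.63, 4.68 and 4.71 at implantation sites, against 3.38, 3.88 and 4.07 at interimplantation sites (1.87-fold, difference 0.90, SE 0.14, adjusted p = 0.00560). The implantation arrays lay close together (SD 0.04), the interimplantation arrays spread more (SD 0.35), and the groups did not overlap. This probe set stood for Spag5 by a near tie, with a mean of 4.225 over the 6 arrays against 4.220 for another. At interimplantation sites that other probe set was the brighter (4.13 against 3.78). Its difference was 0.17 with overlap, and it was not called. Cenpa, the histone H3 variant that marks centromeres, measured 3.57, 3.34 and 3.44 at implantation sites, against 3.55, 3.33 and 3.20 at interimplantation sites (difference 0.09, adjusted p = 0.780). These groups overlapped, as did those of Cenpf, of the outer kinetochore (−0.11). Cenpe, a kinetochore motor, was at 0.002, but its mean of 2.36 was below the median Bacillus control, so its signal cannot be told from background.

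Of the genes of chromosome structure none was called. Top2a (topoisomerase II alpha, which untangles sister chromatids) measured 4.22, 4.07 and 3.97 at implantation sites, against 4.12, 4.03 and 4.03 at interimplantation sites. Mki67, the proliferation marker Ki-67 that coats mitotic chromosomes, measured 3.26, 3.14 and 3.17 at implantation sites, against 2.83, 3.29 and 3.38 at interimplantation sites. In both genes the groups overlapped, and the differences were 0.03 (95% interval −0.17 to 0.22) and 0.02 (95% interval −0.25 to 0.30). Both probe sets were dim, with means of 4.07 for Top2a and 3.18 for Mki67 over the 6 arrays. The Bacillus controls had a median of 2.68 and a maximum of 5.79, so a difference in transcript could be missed here. The condensin subunits, which compact chromosomes, lay at 0.21 for Ncapg, 0.17 for Ncapd2, 0.11 for Smc2, 0.09 for Smc4 and −0.14 for Ncaph. Ncapg and Ncapd2 were higher without overlap and did not pass (adjusted p = 0.272 and 0.406). The other probe set of Ncapg, dimmer than the median Bacillus control, was at 0.004 with overlap.

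**Figure D3:**
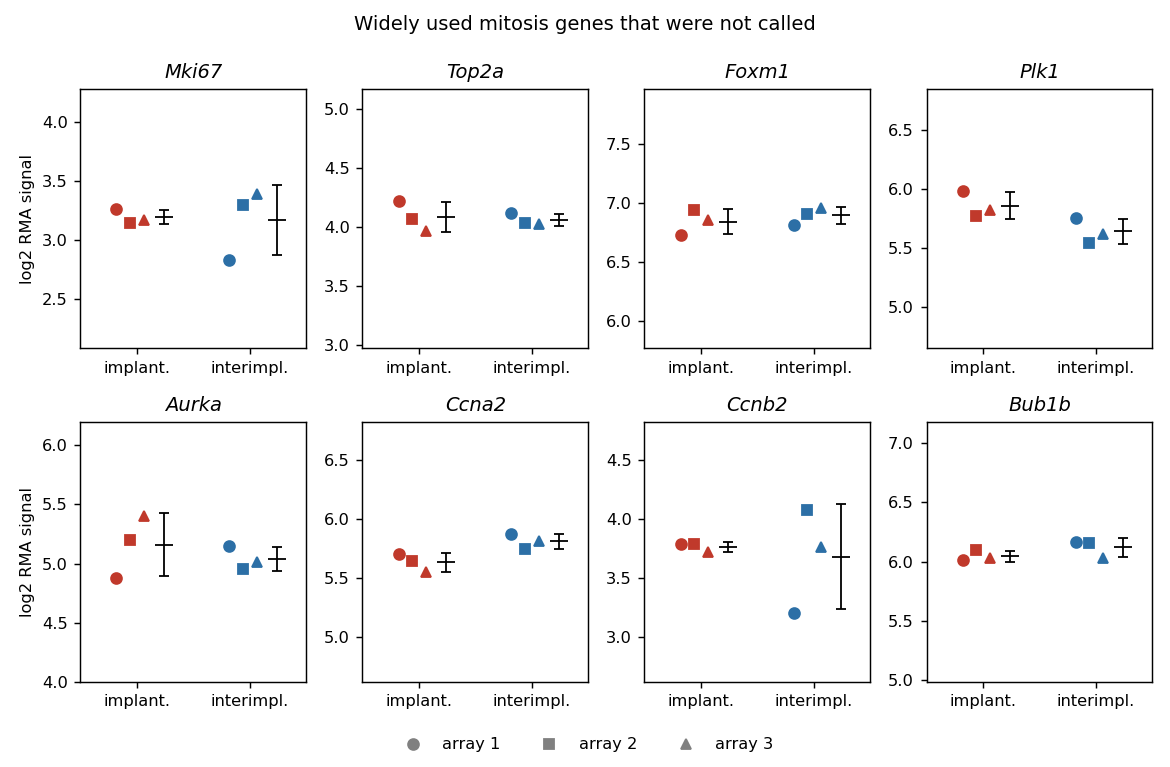
Log2 RMA signal of 8 widely used mitosis genes that were not called, drawn as for the called genes, with implantation sites at the left; black bars give mean ± SD (n = 3 each). The groups overlap for all but Plk1, which is higher at implantation sites, and Ccna2, which is lower, and interimplantation array 1 is the lowest for Mki67 and Ccnb2.

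Among the spindle motors and microtubule proteins, Stmn1 (stathmin, which destabilises microtubules) was the nearest to a call. It was at 7.23, 7.13 and 7.18 at implantation sites, against 6.83, 7.00 and 6.80 at interimplantation sites, without overlap (difference 0.30, adjusted p = 0.106). The dimmer probe set of Stmn1 was at 0.06, with overlap. Kif20a, a kinesin of the central spindle, was at 0.21 without overlap (adjusted p = 0.312), at a dim mean level of 3.18. Kif11, the kinesin that pushes spindle poles apart, measured 4.30, 4.06 and 4.02 at implantation sites, against 4.34, 4.35 and 4.24 at interimplantation sites (difference −0.18, adjusted p = 0.439). Tpx2, an activator of Aurora A, measured 3.28, 3.38 and 3.45 at implantation sites, against 3.44, 3.60 and 3.29 at interimplantation sites (difference −0.08, adjusted p = 0.799). Both genes overlapped between the sites. Hmmr, a microtubule-binding protein of the spindle, had the lowest difference of the list, −0.22 (adjusted p = 0.315). Its 4 probe sets disagreed in sign, at −0.22, 0.08, 0.16 and −0.02, and none was called. The shift by the hybridisation controls, which adds 0.40 to each difference, leaves no gene of the list negative. The remaining kinesins and spindle proteins, Kif23, Kif2c, Kif22, Nusap1 and Prc1, lay between 0.01 and 0.13.

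In cytokinesis, Racgap1, a subunit of the centralspindlin complex, measured 5.99, 6.09 and 6.04 at implantation sites, against 5.57, 5.80 and 5.80 at interimplantation sites (difference 0.32, adjusted p = 0.111), without overlap. The dimmer probe set of Racgap1 was at 0.05, with overlap. Ect2, a binding partner of Racgap1 that activates RhoA at the cleavage plane, was at −0.13 and lower without overlap. Its mean level of 2.96 was near the median Bacillus control (2.68). The scaffold Anln was at 0.04. In all, 14 of the 47 genes were higher and 2 lower without overlap between the groups, where 8.02% and 12.1% of all genes were. By the probe set that stood for each gene, the interval of 40 of the 41 genes not called ended below a 1.5-fold rise. Only that of Bub1 reached it. A dimmer probe set of Kif22, at 0.42, also reached it (95% interval 0.19 to 0.65), so the count depends on the probe set chosen. Since mismatches can shrink differences, this count bounds the signal and not the transcript. It holds for the deposited normalization only. The shift by the hybridisation controls adds 0.40 to each difference, and the intervals were not recounted under it.

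The genes differed in how well their probe sets agreed. In all, 91 probe sets carried the symbol of a member, of which 7 were called higher, where 1.26% of all probe sets were. The 7 were those of the called genes and the other probe set of Cks2 (0.45). The other probe sets of Cks1b (0.19), Pttg1 (0.15 each) and Spag5 (0.17 and 0.03) had the same sign and were not called, and Cdk1 and Ube2c had 1 probe set each. Of 27 genes with several probe sets, 11 were positive in all of them, 3 negative in all and 13 mixed. The probe sets that stood for Cks2 and Pttg1 are marked as shared by several transcripts or genes. Without shared probe sets Cks2 was at 0.45 (adjusted p = 0.0191), and Pttg1 was at 0.15 and lost its call (adjusted p = 0.468).

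Called genes occurred on both sides of the brightest Bacillus control. Of the 9 genes brighter than every Bacillus control, 1 was called, where 3.49% of all genes above that limit were called higher. Of the 38 dimmer ones 5 were called, where 0.593% of all genes at or below it were called higher. Pttg1 was the called gene above that limit.

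**Figure D4:**
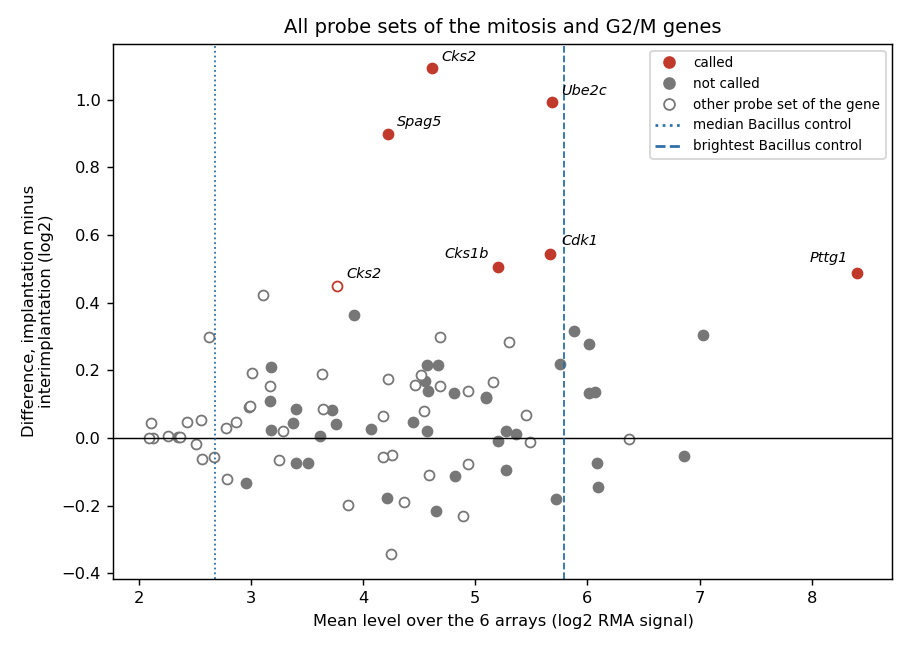
Difference between the sites (log2, implantation minus interimplantation) against the mean level over the 6 arrays (log2 RMA signal) for the 91 probe sets of the mitosis and G2/M genes; red marks called probe sets, open circles a gene's dimmer probe sets, and the blue lines the median (2.68) and brightest (5.79) Bacillus control. Called probe sets occur from 3.77 to 8.40, and of them only that of Pttg1 is right of the brightest control.

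The calls rested on single arrays to different degrees. Interimplantation array 1 was the lowest of the 6 arrays for all 6 called genes, as it was for 59.2% of the 169 genes called higher on the whole array, and it also had the brightest hybridisation controls (7.27). Without that array all 6 were still called, where 1.56% of all genes were called higher, and the differences of Ube2c, Spag5 and Cks2 were 0.81, 0.70 and 1.01. The actin controls, whose 3′ minus 5′ signal is a sign of RNA quality, also differed between the sites: 0.15, 0.39 and 0.49 at implantation sites, against 0.53, 0.58 and 0.50 at interimplantation sites, without overlap. Implantation array 1 had the lowest of these actin values. The same measure of the Gapdh controls overlapped between the sites. It was −0.55, −0.55 and −0.46 at implantation sites, against −0.26, −0.71 and −0.73 at interimplantation sites. The part of RNA quality in the differences was not tested. Without implantation array 1 the calls numbered 3, where 0.573% of all genes were called higher, and Cdk1, Cks1b and Pttg1 were lost (adjusted p = 0.111, 0.0811 and 0.107). Without implantation array 3 or interimplantation array 3 there were 4 calls, where 0.726% and 1.02% of all genes were called higher. Cks2, Ube2c and Spag5 kept their calls whichever array was left out, while Pttg1 kept its call only without interimplantation array 1 or 2. In these fits each gene kept the probe set chosen on all 6 arrays. For Spag5 that choice was a near tie, and its other probe sets did not stand for it in these fits.

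The level of the hybridisation controls moved with the site, with overlap between the groups, and the fit was repeated with it in 2 ways. With each array shifted by its controls, 9 of the 47 genes were called higher, where 3.63% of all genes were. The additional genes were Bub1, Stmn1 and Racgap1. With the control level as a covariate, only Cks2 was called (difference 0.94, adjusted p = 0.00826), where 0.331% of all genes were called higher. The differences of the other 5 were 0.71 for Ube2c, 0.68 for Spag5, 0.51 for Cks1b, 0.51 for Cdk1 and 0.33 for Pttg1 in that fit (adjusted p between 0.105 and 0.274). With the probe sets of each gene averaged, Cks2, Ube2c and Cdk1 were called, where 1.04% of all genes were called higher. Ube2c and Cdk1 had 1 probe set each, so averaging left their values unchanged. Of the called genes with several probe sets, Cks2 kept its call, and Cks1b, Pttg1 and Spag5 lost theirs.

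Of the other genes of mitosis, in 5 further lists without the 47, 2 of 117 measured genes were called higher by limma and 0 lower. Of all genes 1.36% were called higher and 1.18% lower. The median over the 117 genes was 0.02. Before adjustment, p was under 0.05 for 15 higher and 6 lower genes, where 6.14% and 8.67% of all genes were. The 2 called genes of these lists were Ube2s and Ran. Ube2s, which lengthens the ubiquitin chains that Ube2c starts on substrates of the anaphase promoting complex, was at 9.11 ± 0.13 at implantation sites and 8.46 ± 0.29 at interimplantation sites (SD, n = 3 each), a difference of 0.65 (adjusted p = 0.0234). Its other probe set was at −0.16, and its call was lost when any of the 3 implantation arrays or the third of the interimplantation arrays was left out (adjusted p between 0.0575 and 0.132). Ran, the small GTPase of nuclear transport and spindle assembly, measured 7.52, 7.23 and 7.45 at implantation sites, against 6.25, 6.80 and 6.73 at interimplantation sites, a difference of 0.80 (adjusted p = 0.00900), and its 6 probe sets were all positive. Without shared probe sets Ran was at 0.04, and without implantation array 1 or 3 it was not called (adjusted p = 0.0657 and 0.0557).

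The shares of all genes beside the counts by list are 1.36% called higher and 1.18% called lower. Before adjustment they are 6.14% higher and 8.67% lower. By list, 1 of 16 genes of the anaphase promoting complex and its regulators was called (median 0.02), with the core subunit Cdc16 at 0.22. Of 25 other kinetochore and centromere genes 0 were called (median 0.03; before adjustment 1 gene was higher and 2 lower at p under 0.05). The nearest were Cenpk, of the inner kinetochore (0.30, adjusted p = 0.0804), and Zw10 (−0.19, adjusted p = 0.318). Of 12 genes of cohesin, its regulators and the remaining condensin subunits 0 were called (median −0.02; before adjustment 0 were higher and 2 lower), with the cohesin subunit Stag2 at −0.28 and its regulator Cdca5 (sororin) at −0.23. Of 36 other spindle, centrosome and cytokinesis genes 1, Ran, was called (median 0.05; before adjustment 8 were higher and 0 lower). The means over that list lay between 4.86 and 4.89 at implantation sites and between 4.75 and 4.79 at interimplantation sites, without overlap, and the kinase Nek6 was at 0.37 (adjusted p = 0.0671). Of 28 other regulators of mitotic entry and exit 0 were called (median 0.009; before adjustment 4 were higher and 2 lower). The nearest were the phosphatase subunit Ppp2ca (0.38, adjusted p = 0.0593) and Ensa (−0.33, adjusted p = 0.0734), which inhibits that phosphatase during mitosis.

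The genes of DNA replication and S phase, the step of the cycle before G2, had 4 of 44 measured genes called higher and 0 lower, with a median of 0.13. Of all genes 1.36% were called higher and 1.18% lower. Before adjustment 13 of the 44 were higher and 0 lower, where 6.14% and 8.67% of all genes were. The 4 were Rrm1, a subunit of ribonucleotide reductase (1.02), the replicative helicase subunits Mcm7 (0.92) and Mcm5 (0.60), and the polymerase clamp Pcna (0.80). Rrm1 and Pcna kept their calls in all 16 alternatives, Mcm7 lost its call without shared probe sets (0.40, adjusted p = 0.155), and Mcm5 kept its call only without interimplantation array 1 when arrays were left out (adjusted p up to 0.177). In the means over that list, the arrays lay between 4.85 and 4.89 at implantation sites and between 4.65 and 4.70 at interimplantation sites. The difference between the mitotic and the replication genes was not tested.

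**Figure D5:**
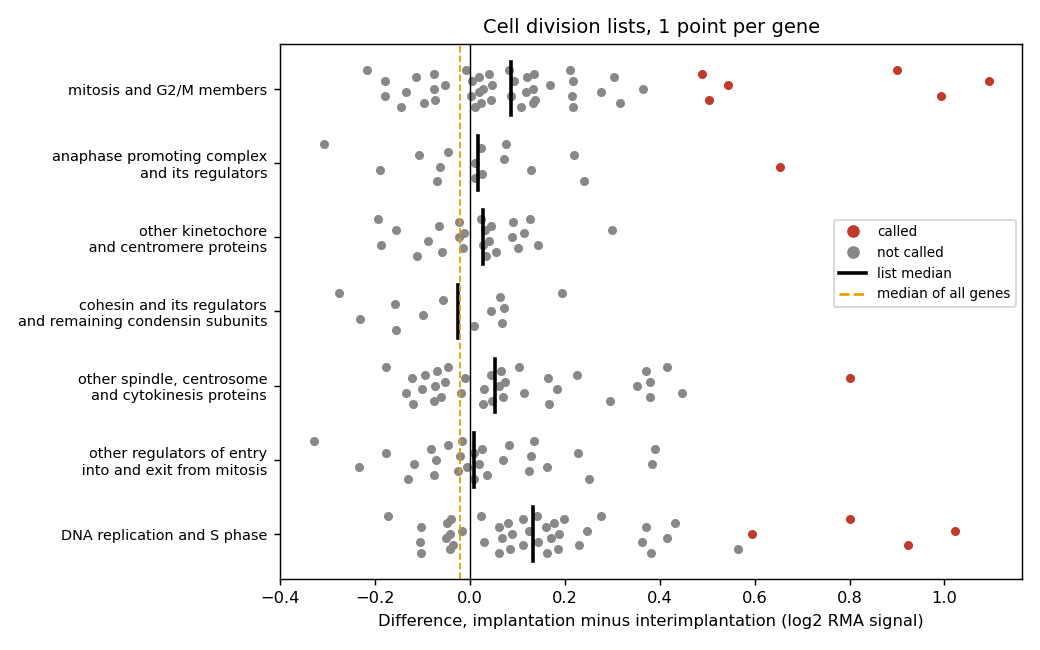
Difference between the sites (log2 RMA signal, implantation minus interimplantation) of each measured gene in the mitosis and G2/M list, 5 further mitosis lists and the list of DNA replication and S phase; red points are called genes, black bars list medians and the dashed line the median of all genes. The medians run between −0.02 (cohesin) and 0.13 (DNA replication), and the called genes are few and all at the right.

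Markers of other cell types moved with the site as well. The mean level of 9 epithelial markers was 4.94 to 5.08 at implantation sites and 5.23 to 5.38 at interimplantation sites, with 2 of 9 called lower. That of 7 smooth muscle markers was 5.63 to 5.92 at implantation sites and 6.21 to 6.48 at interimplantation sites. Here too 2 of 7 were called lower, where 1.18% of all genes were called lower. In both lists the groups did not overlap, and their part in the differences of the mitosis genes was not tested. The means of 10 stroma markers (6.42 to 6.53 at implantation sites, 6.39 to 6.52 at interimplantation sites) and of 6 leukocyte markers (4.91 to 5.06 at implantation sites, 4.78 to 5.06 at interimplantation sites) overlapped, with 0 called, as did those of 6 endothelial markers (5.30 to 5.38 at implantation sites, 5.36 to 5.60 at interimplantation sites) and 2 erythroid markers (4.53 to 4.67 at implantation sites, 4.67 to 4.97 at interimplantation sites). Of 8 markers of trophoblast and embryo 0 were called. Their mean was 4.30 to 4.36 at implantation sites and 4.37 to 4.46 at interimplantation sites, without overlap and lower at implantation sites, and 7 of the 8, Cdx2 and Eomes among them, were dimmer than the brightest Bacillus control.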

How the data were processed

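Uterine RNA of 3 implantation sites and 3 interimplantation sites was measured on 6 Affymetrix mouse arrays. The authors deposited log2 values, 1 per probe set and array, made with Partek 6.6 and RMA per the submitters' processing notes. Log base 2 is inferred from RMA's usual output and from the range of the values. The notes do not give the order of the steps. RMA makes the arrays' distributions alike, so a difference shared by all transcripts is not seen. Of 22690 probe sets, 64 controls were left out and 22626 tested without a filter. Genes were named from the platform annotation, where 20380 probe sets had 1 symbol, 691 several and 1555 none. Of the 47 measured genes, 46 had the same symbol in the RefSeq annotation of the hamster. Limma 3.58.1 in R 4.3.3 (lmFit and eBayes, site as the only term, two-sided) gave differences, implantation minus interimplantation, and p-values adjusted by Benjamini-Hochberg over all tested probe sets. It was tested on simulated data with known differences. The number of arrays limits the precision.

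The members, lists and alternatives were chosen with earlier results of these data known. Values per array were given for called genes, for the 6 genes with the largest absolute difference and for Cdk1, Ccna2, Ccnb2, Plk1, Aurka, Aurkb, Birc5, Cdc20, Bub1b, Mad2l1, Top2a, Mki67, Foxm1, Cenpa, Kif11 and Tpx2. Of the other lists, called genes and the 2 with the smallest p were named. Per-array values of Bub1, Stmn1 and Racgap1 were added after their values were seen. Alternatives were a replicate block, leaving out each array, a trended and robust variance, array weights, a filter on dim probe sets, repeated quantile normalization, both uses of the hybridisation controls, leaving out shared probe sets, averaging the probe sets of each gene and, added after seeing the data, a fit with 1 probe set a gene.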

Additional observations from a re-analysis of the deposited data

How the results depend on the processing

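As reported, 6 of the 47 genes were called higher and 0 lower, and no alternative called a member lower. With the replicate number as a block, 6 were called with a median of 0.09. Samples of the same number did not deviate together (correlations of −0.09, 0.07 and −0.03 for numbers 1, 2 and 3), so the numbers were not taken as pairs. Implantation array 1 with interimplantation array 3, and 3 with 1, gave 0.10 each. The remaining combinations lay between −0.09 and 0.01. Pairs of different numbers were not tested. The design text speaks of 3 animals for the 6 arrays, and the labels leave open whether same-numbered arrays share one of them. Leaving out 1 array gave 3 to 7 calls and medians of 0.07 to 0.11, and the only added gene was Bub1, without interimplantation array 2 (adjusted p = 0.0416). A covariate for the level of the hybridisation controls left 1 call, and averaging the probe sets of each gene left 3. Among these 3, Cdk1 and Ube2c had only 1 probe set each, whose values averaging does not change. Without the dimmer probe sets 28 members remained, with a median of 0.13, and with the shift by the controls the median was 0.48, where that of all genes was 0.38. No member of the list that was called changed sign under any of the 16 alternatives, where Spag5 gave no value without the dimmer probe sets. Ube2s, outside the list, was at −0.16 without shared probe sets. Over all probe sets, 284 were higher and 238 lower, against 77 and 130 with the covariate and 752 and 13 with the shift. Without implantation array 1, 2 or 3 there were 117, 172 and 154 higher and 88, 114 and 98 lower. Lower calls numbered 401, 136 and 125 without interimplantation array 1, 2 or 3, and 363 with array weights. With 3 arrays a site, the SE of members that were not called was 0.080 to 0.167, which limits the differences that could be called.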

Other observations

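Probe sets of a few members that were not called pointed in opposite directions, and these genes were picked after their values were seen. For Incenp, the scaffold of the chromosomal passenger complex, the 3 probe sets were at 0.12, 0.30 and −0.34. The last had 4.09, 4.18 and 3.97 at implantation sites against 4.39, 4.45 and 4.44 at interimplantation sites (adjusted p = 0.0628). Neither it nor the probe set at 0.30 (adjusted p = 0.124) overlapped between the sites. For Kif22, a kinesin that binds chromosome arms, the probe sets were at 0.02, −0.19 and 0.42. The probe set at 0.42 had 3.36, 3.42 and 3.16 at implantation sites against 2.86, 2.75 and 3.07 at interimplantation sites. None of these probe sets was called.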
